A study of Homo sapiens with 2 samples.

Results

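The clustered replication-dependent histone genes were examined in HCT15, a human cell line from a colorectal cancer, after stable expression of LYAR-shRNA or of Scramble-shRNA. Members were the probe sets whose annotated symbol begins with HIST1H, HIST2H, HIST3H or HIST4H, which gave 117 of the 45033 probe sets and 64 of the 23619 genes on the array. They comprised 6 H1 genes, 16 H2A genes, 17 H2B genes, 12 H3 genes and 13 H4 genes. Of the 64 genes, 40 had more than 1 probe set, and each member probe set was summarised from 3 probes.

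Replication-dependent histone genes supply the core histones H2A, H2B, H3 and H4 and the linker histone H1 that package newly made DNA, and their mRNA is made in large amounts in S phase. They lie in gene clusters, most of them intronless, and many genes of a type encode identical or nearly identical proteins. Their main mRNA ends in a conserved stem-loop bound by SLBP rather than in a poly(A) tail, although some of the genes are known to give polyadenylated transcripts as well. In these samples cDNA was primed with oligo dT, per the labels, so each value below is a signal from oligo dT-primed cDNA, and the share of stem-loop and polyadenylated mRNA behind it was not measured. Probe sequences were not used here, and probes for coding sequence shared by several copies can read more than 1 gene, so single-gene values carry that uncertainty.

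The study compared 1 LYAR-shRNA sample with 1 Scramble-shRNA sample, each hybridised to 1 single-colour NimbleGen array. Both carried a stably integrated pLentiLox 3.7 lentiviral vector and had been sorted on GFP fluorescence, and whether either was 1 clone is not given in the sources used here. LYAR encodes a nucleolar protein with zinc fingers. With 1 array per condition there is no replicate check, no test was made, and a threshold of 2-fold was used to count genes. A difference is the log2 intensity with LYAR-shRNA less the log2 intensity with Scramble-shRNA.

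For the targeted gene, LYAR, the arrays read 1036 with its shRNA and 1925 with scramble, or 53.8% of the control. This difference of -0.89 came from 1 probe set and was itself under the 2-fold threshold. Random control probes had intensities of 30.3 and 32.7, and values under 2 times these (60.7 and 65.4) are called near random. Of 10 colon epithelium markers, 9 lay above that level on both arrays and CDX1 was near random on both, with summed intensities of 116155 and 118624. All 8 blood-cell markers were lower on the LYAR-shRNA array, 4 of them at least 2-fold, with summed intensities of 529.9 against 1789. HBA1, an alpha-globin gene, measured 89.4 against 496, while PTPRC, the pan-leukocyte marker, was near random at 56.8 and 63.0. The 6 fibroblast markers summed to 419.6 and 297.2, and 5 of them were near random on both arrays. The 5 neuronal or embryonic kidney markers summed to 253.4 and 195.7, and by gene mean 4 of them were near random on both. For 1 of these 4, NEFL, the mean covers 3 probe sets with differences from -1.79 to 3.75, each near random on at least 1 array. The part of these shifts in the histone values was not tested, and in bulk RNA fewer cells of a kind and less RNA per cell cannot be told apart.

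Most clustered histone genes that passed an intensity filter differed by less than 2-fold, and so did most of all genes that passed it. The shares below are not read as a trait of the set. A gene passed the intensity filter when its value on the brighter array reached 105.9, the median over all genes, and 49 of the 64 did so. Of these 49, 1 gene (2.04%) was higher by 2-fold or more with LYAR-shRNA, beside 5.06% of all 12682 passing genes, and 0 were lower by 2-fold or more, beside 3.56%. In either direction 8.63% of all passing genes reached 2-fold. The 1 gene was HIST1H4H. A difference above 0 was found in 30 of the 49, or 61.2%, beside 54.6% of all passing genes. In 37 of the 49 (75.5%) the difference was smaller than 0.5 on the log2 scale, beside 67.8% of all passing genes. The median difference was 0.08 over all 64 members and 0.02 over all genes, and the SD over the passing genes was 0.44 for histones and 0.60 for all genes. Because 1 bright array is enough to pass, these counts describe the passing members and not the 15 that did not pass.

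**Figure D1:**
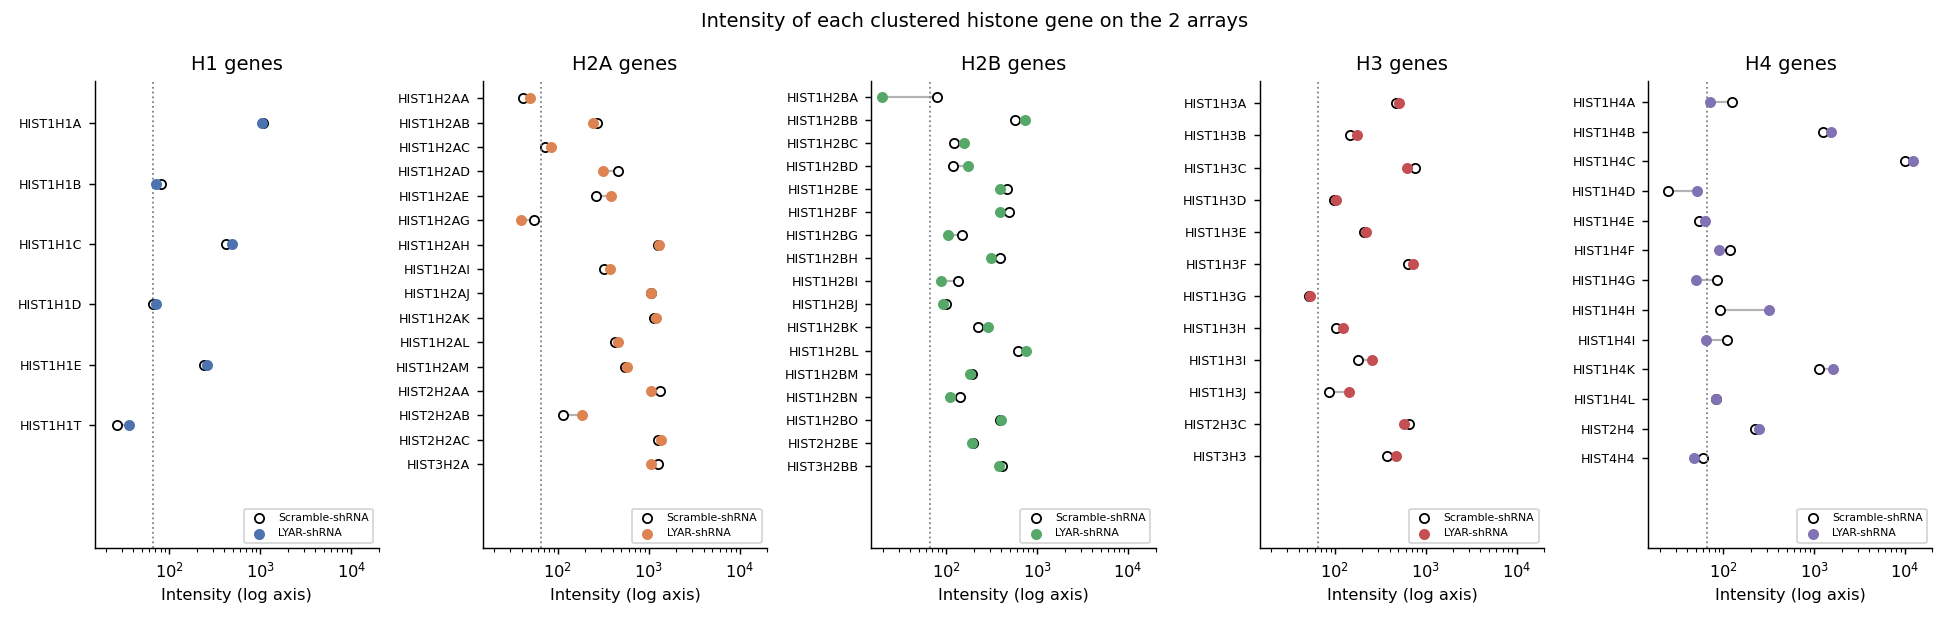
Intensity of each of the 64 genes on the scramble array (open circles) and the LYAR-shRNA array (filled circles), on a log axis with 1 panel per histone type; the dotted line marks 2 times the random control probes of the scramble array. Most pairs of circles overlap or nearly touch, and HIST1H4H and HIST1H2BA show the widest separations. Probe sets differ in affinity, so positions of different genes on the axis are not a ranking of their transcripts.

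At the level of single probe sets, 82 of the 117 were above 2 times random on both arrays. Among those 82, 1 was at least 2-fold higher (4.35% of all 25236 such probe sets were) and 1 was at least 2-fold lower (2.99% of all were). These belonged to HIST1H4H and HIST1H4I, both H4 genes. The remaining 35 member probe sets were near random on 1 array (19) or on both (16), and their differences are bounds or carry no order. Some bounds were themselves past 2-fold: HIST1H4H (3.03), HIST1H3H (2.37) and HIST1H4E (2.13) higher, HIST1H2BG (2.49) and another of HIST1H4E (2.22) lower. The share of such bounds over all probe sets was not counted. The other probe sets of HIST1H3H, measured on both arrays, gave -0.61 and -0.02.

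**Figure D2:**
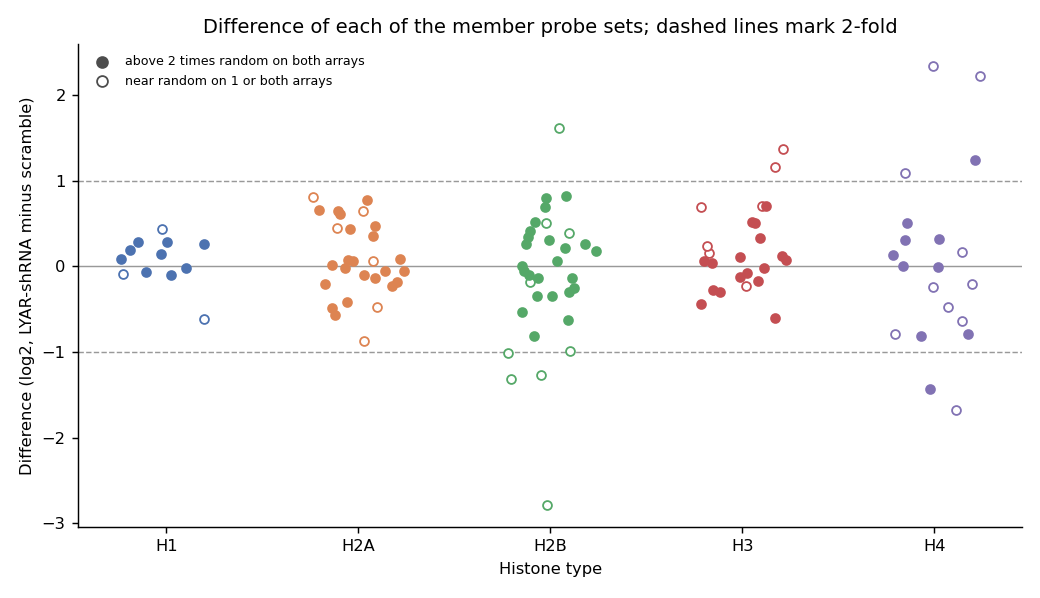
Log2 difference of each of the 117 member probe sets by histone type, with filled points above 2 times random on both arrays and open points near random on 1 or both; dashed lines mark 2-fold. Among filled points only 2 lie past 2-fold, both of them H4, and most of the wide differences are open points.

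H4 histones form the core tetramer with H3, and nearly all H4 genes encode the same protein. HIST1H4H (current symbol H4C8), on chromosome 6 from 26389261 to 26393741 in hg18, had a gene value of 320.2 with LYAR-shRNA and 92.3 with Scramble-shRNA. Its compact probe set measured 518 against 219, a difference of 1.24, and its probe set for a transcript spanning 4481 bases measured 198.1 against 39.0, a difference of 2.35 with the scramble value near random. The compact probe set was 2.37-fold and the other at least 3.03-fold higher with LYAR-shRNA. The 14 other probe sets annotated within 50000 bases of it belong to 7 histone genes. Their differences ran from -0.99 to 0.71, and 0 of the 9 that were above 2 times random on both arrays reached 2-fold.

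HIST1H4I (H4C9) went the other way. Its compact probe set, on chromosome 6 from 27215066 to 27215436, measured 129.9 with LYAR-shRNA and 351 with Scramble-shRNA, a difference of -1.44 or 2.70-fold lower. Its other 2 probe sets, near random on both arrays, gave -0.64 and -0.24, so the gene mean of -0.77 stayed under 2-fold. All 3 lie inside the span annotated for HIST1H2BK transcripts, so the signals of overlapping transcripts cannot be told apart.

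The 300 bases around the starts of these genes, and of HIST1H4B, are shown because HIST1H4H and HIST1H4I had the largest measured probe set difference in each direction among the H4 genes, while HIST1H4B was bright on both arrays and under 2-fold. Each runs from 250 bases before to 50 bases after the RefSeq start, in GRCh38.p14. Capitals mark GGTCCG, the core letters of an element known from H4 promoters, and TATAA, the letters of a TATA box.
HIST1H4H, chr6:26285485-26285784, minus strand: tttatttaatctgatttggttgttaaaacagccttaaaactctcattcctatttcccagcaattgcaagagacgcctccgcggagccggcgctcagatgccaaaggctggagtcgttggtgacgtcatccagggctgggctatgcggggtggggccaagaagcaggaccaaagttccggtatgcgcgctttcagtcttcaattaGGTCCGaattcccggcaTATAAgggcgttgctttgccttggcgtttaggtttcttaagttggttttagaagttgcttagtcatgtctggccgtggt
HIST1H4I, chr6:27139032-27139331, plus strand: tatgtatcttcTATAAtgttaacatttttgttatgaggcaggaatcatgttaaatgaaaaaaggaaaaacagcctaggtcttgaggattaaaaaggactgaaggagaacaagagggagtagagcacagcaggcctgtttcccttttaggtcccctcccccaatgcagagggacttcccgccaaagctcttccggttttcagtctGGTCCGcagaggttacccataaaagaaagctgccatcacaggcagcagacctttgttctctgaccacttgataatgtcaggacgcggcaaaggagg
HIST1H4B, chr6:26027234-26027533, minus strand: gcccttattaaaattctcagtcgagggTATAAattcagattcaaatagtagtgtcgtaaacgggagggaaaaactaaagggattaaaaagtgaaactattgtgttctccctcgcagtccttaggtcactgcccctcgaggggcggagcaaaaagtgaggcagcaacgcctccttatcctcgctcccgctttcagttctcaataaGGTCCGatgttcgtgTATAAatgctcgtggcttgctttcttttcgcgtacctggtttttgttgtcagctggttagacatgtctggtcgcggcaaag
In all 3 the letters GGTCCG began 46 bases before the start, so the gene that was higher, the gene that was lower and the gene under 2-fold share that placement. TATAA began 29 bases before the start in HIST1H4H, 31 and 223 bases before it in HIST1H4B, and 239 bases before it in HIST1H4I. Only exact letters were searched, so a near match, such as the cataaaa that follows GGTCCG in HIST1H4I, is not marked.

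Across the set, 59 of the 64 genes had a listed RefSeq promoter, of which the first listed was used, and motifs were searched on both strands. GGTCCG was found in 10 of 11 H4 promoters, beginning 44 to 47 bases before the start, and in 11.2% of all 27305 promoters. It was in 0 of 6 H1, 1 of 15 H2A, 1 of 17 H2B and 1 of 10 H3 promoters. CCAAT, the letters of a CCAAT box, was in every listed H1, H2A, H2B and H3 promoter, in 3 of 11 H4 promoters and in 35.7% of all promoters. The octamer ATTTGCAT, bound by the POU factor OCT1, was in 13 of 17 H2B and 11 of 15 H2A promoters and in 1.8% of all. TATAA was in 55 of the 59 and in 21.1% of all promoters. No motif contains another, neighbouring H2A and H2B genes can share a window, and a match is a description of letters only.

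At the gene level the other H4 genes stayed under 2-fold or near random. HIST1H4C measured 12229 with LYAR-shRNA and 9904 with Scramble-shRNA, a difference of 0.30. HIST1H4B gave 1547 against 1241 (0.32) and HIST1H4K 1600 against 1126 (0.51). HIST2H4 gave 246.5 and 223.8 (0.14). Lower values came from HIST1H4A, at 70.7 against 124.1 (-0.81), and HIST1H4F, at 90.5 against 118.9 (-0.39), the latter from probe sets of -0.78 and 0.00. Both lay not far above the near-random level of 60.7 on the LYAR-shRNA array. HIST1H4E had probe sets that disagreed: the compact one, 139.2 against 29.8, was at least 2.13-fold higher, and 1 of its 2 longer ones, 42.0 against 134.5, was at least 2.22-fold lower. HIST1H4D, at 52.0 and 24.4, was near random on both arrays and gives no fold. HIST1H4G, at 49.6 against 85.6, was at least 1.41-fold lower, and HIST1H4L, at 83.2 and 82.6, differed by 0.01. Of the 13 H4 genes 8 passed, with 5 above 0 and 3 below, and the median over all 13 was 0.14.

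H3 genes encode the partner of H4 in the tetramer, and 8 of the 10 that passed were above 0, with 0 past 2-fold and a median of 0.13 over all 12. That count depended on how probe sets were combined: with each gene's brightest probe set 6 of 12 passing genes were above 0, and with the series' own value table it was 5 of 11, while without long-span probe sets it was 6 of 10. HIST1H3J, from 1 probe set, measured 141.9 against 86.8, a difference of 0.71. HIST1H3I had a mean of 0.52 from probe sets of -0.12 and 1.17, the second near random on the scramble array. HIST3H3, which encodes the testis H3 variant H3t, gave 471 against 378 (0.32). Downward differences were found in HIST1H3C, 623 against 756 (-0.28), and HIST2H3C, 581 against 653 (-0.17). HIST1H3F, at 717 against 645, and HIST1H3A, at 503 against 465, differed by 0.15 and 0.11. All of these gene values lay within 2-fold.

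H2A and H2B pair as dimers on the nucleosome. For H2A, 9 of 13 passing genes were above 0, 0 reached 2-fold, and the median of all 16 was 0.08. HIST2H2AB measured 181.9 with LYAR-shRNA and 114.7 with Scramble-shRNA, a difference of 0.67 from 1 probe set. HIST1H2AE gave 384 against 263 (0.55), with both probe sets higher, at 0.44 and 0.65. HIST1H2AD, 311 against 461, differed by -0.57, and its probe set lies inside the span annotated for HIST1H3D. HIST2H2AA gave 1065 against 1333 (-0.32) and HIST3H2A 1056 against 1256 (-0.25), while HIST1H2AH, HIST1H2AK and HIST2H2AC differed by 0.07, 0.07 and 0.13. HIST1H2AI had a mean of 0.25 over 4 probe sets, of which 1 is placed on HIST1H2AH (-0.20) and 1 on HIST1H2AL (0.61). Of those placed on HIST1H2AI itself, 1 gave 1236 against 1277 (-0.05). The other, at 91.6 against 58.3 (0.65), was near random on the scramble array.

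For H2B, 6 of 15 passing genes were above 0 and 9 below, with a median of -0.12 over all 17. These counts did not hold under other choices of probe sets, with 8 of 16 above 0 by the brightest probe set, 9 of 16 in the series value table, where the median was 0.14, and 8 of 15 without long-span probe sets. HIST1H2BI measured 88.3 against 135.9, a difference of -0.62, with probe sets of -0.99 and -0.25. The second of these, at 252.4 against 300.4, was above 2 times random and the first was not on either array. HIST1H2BG had a mean of -0.51 from a compact probe set at 180.8 against 146.3 (0.31) and a longer one at 60.6 against 151.4, near random on the LYAR-shRNA array and at least 2.49-fold lower. HIST1H2BN had a mean of -0.38, its compact probe set measuring 498 against 416 (0.26) and its longer one being near random on both arrays. HIST1H2BB gave 736 against 567 (0.38), although 1 of its 2 probe sets is placed on HIST2H2BE on chromosome 1. HIST1H2BL gave 755 against 617 (0.29), HIST1H2BF 387 against 491 (-0.34) and HIST1H2BE 390 against 467 (-0.26). No H2B gene that passed reached 2-fold.

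Linker histone H1 binds DNA where it enters and leaves the nucleosome, and its 6 genes had a median of 0.11, with differences from -0.06 to 0.23 in the 3 that passed. HIST1H1C measured 489 with LYAR-shRNA and 418 with Scramble-shRNA (0.23), and HIST1H1E 258 against 238 (0.12). HIST1H1A, with 3 probe sets, gave 1040 against 1084, a difference of -0.06. HIST1H1B and HIST1H1D lay just above the near-random level, with differences of -0.17 and 0.10 and probe sets of both signs. In HIST1H1B 1 probe set gave 97.5 against 80.0 (0.29) and the other was near random on the LYAR-shRNA array. In HIST1H1D 1 gave 99.7 against 81.5 (0.29) and the other was near random on both arrays. The 3 that passed were all under 2-fold.

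Genes of the set that are known from the testis were mostly not measurable. HIST1H1T, at 35.9 and 26.5, and HIST1H2AA, at 49.2 and 41.3, were near random on both arrays. HIST1H2BA, which encodes the testis H2B variant TH2B, had probe sets at 15.0 against 103.7 and at 25.5 against 61.2. The first was lower with LYAR-shRNA by at least 1.71-fold and the second was near random on both, so the mean of -2.03 has no known size and the gene did not pass.

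Genes known also to give polyadenylated transcripts are of interest because of the oligo dT priming. Of 8 listed, 7 are members, since the probe set of HIST2H2BF carries another symbol and, at 25.8 and 23.4, was near random. Their median difference was 0.24, beside 0.08 for all 64 members and 0.02 for all genes, and 5 passed, 4 of them above 0 and 0 past 2-fold. That median is the value of HIST1H2AC, which did not pass and whose probe sets disagreed in sign. The list median was not recomputed under other choices of probe sets. HIST1H2BD had a gene mean of 0.54 over 4 probe sets: compact ones gave 525 against 301 (0.80) and 89.7 against 29.1, at least 1.37-fold higher, and of the longer ones 1 gave 363 against 389 (-0.10) and 1 was near random on both arrays. HIST1H2BK gave 284 against 224 (0.35) from probe sets of -0.13 and 0.82. HIST1H2BC had a gene mean of 157.4 against 120.5 (0.38). Its compact probe set gave 541 against 452 (0.26) and its longer one was near random on both arrays. HIST1H2AC differed by 0.24 over probe sets from -0.87 to 0.81. Both of these extremes were near random on 1 array, and its compact probe set gave 148.9 against 86.7 (0.78). HIST1H2BJ had a mean of -0.12, its compact probe set measuring 213.1 against 328.2 (-0.62) and its longer one being near random on both arrays. HIST2H2BE differed by -0.04.

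The annotation separated compact probe sets from those whose transcript spans more than 1000 bases of the genome, a split made after the values were seen. Of the 24 long-span probe sets, 6 were above 2 times random on both arrays, and of the 93 compact ones 76 were. Of the 15 genes that had both kinds, 13 held a probe set near random, so the signs of the 2 kinds were not counted against each other. In the 2 genes measured throughout, HIST2H2BE gave 0.22 in its compact and -0.30 in its long-span probe set, and HIST1H2AM gave a mean of 0.15 and a value of -0.05. Over all 40 member genes with several probe sets, near-random ones included, the probe sets shared a sign in 19 (47.5%), beside 51.9% of the 11860 such genes on the array, and their pooled SD was 0.69 for histones and 0.59 for all. Most gene differences given here are smaller than that spread.

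**Figure D3:**
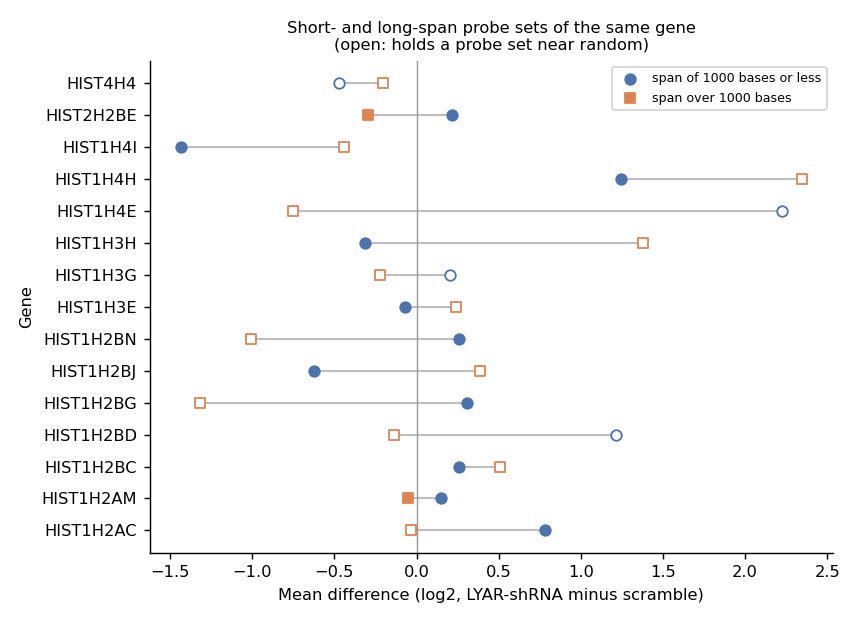
Mean log2 difference of the compact (circles) and long-span (squares) probe sets of the 15 genes that had both; open symbols include a probe set near random. Open symbols appear in 13 of the 15 genes, and HIST1H4H is the gene whose symbols both lie past 1, its long-span symbol being open.

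Position within the cluster was compared next. The HIST1 genes fell into 2 blocks on chromosome 6, of 34 genes between 25834269 and 26393741 and of 20 genes between 27199618 and 27969648 in hg18. Median differences were 0.11 and 0.07. Among passing genes, 13 of 24 (54.2%) and 13 of 16 (81.25%) were above 0, beside 54.6% of all passing genes. These block counts were not recomputed with the brightest probe set. That choice changed the sign of HIST1H2BK, HIST1H3I and HIST1H2BN, among others, in the second block. The 6 HIST2 genes on chromosome 1 had a median of 0.05 and the 3 HIST3 genes, also on chromosome 1, of -0.13. The single HIST4 gene, HIST4H4 on chromosome 12, had values of 47.3 and 59.7, near random. No block held a run of genes past 2-fold.

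**Figure D4:**
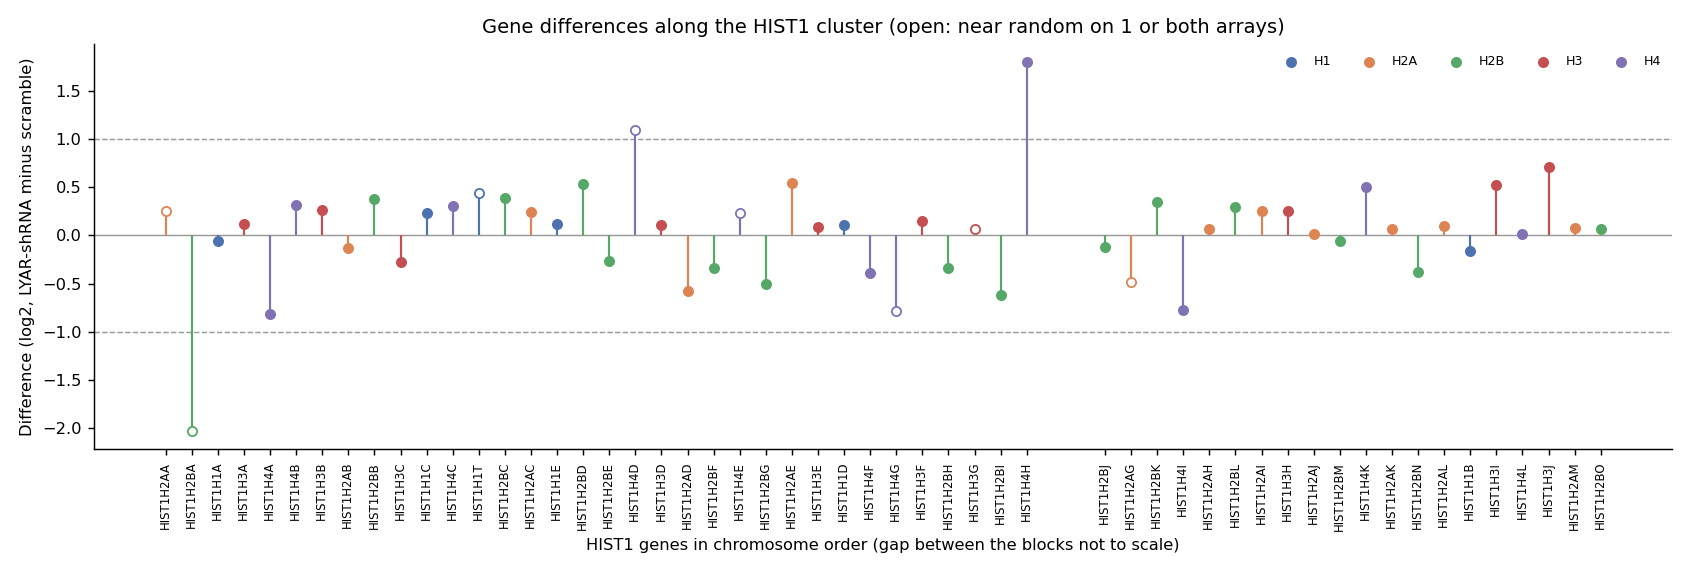
Log2 difference of the 54 HIST1 genes in chromosome order, coloured by histone type, with open points near random on 1 or both arrays and dashed lines at 2-fold. HIST1H4H stands at the end of the first block at 1.79, and its neighbours lie on both sides of 0.

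H2A and H2B genes often stand head to head and share a promoter. Among genes with a RefSeq promoter entry to give the strand, 11 such pairs lay 238 to 345 bases apart in hg18, and in 9 of them both partners were above 2 times random on both arrays. In those 9 the partners had the same sign in 5 and opposite signs in 4, and with each gene's brightest probe set the counts were 6 and 3, and the pairs on each side were not all the same. HIST1H2AD and HIST1H2BF were both lower, at -0.57 and -0.34, each from 1 probe set. HIST1H2AE differed by 0.55 and its partner HIST1H2BG by -0.51, but HIST1H2BG stood at 0.31 with its brightest probe set. By gene mean, every member of the 9 pairs differed by less than the 0.69 spread between probe sets of a histone gene. With the brightest probe set, HIST1H2AC (0.78) and HIST1H2BM (-0.82) differed by more.

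Histone variant genes outside the named clusters are mostly expressed independently of replication, and H2AFX is known to give both a stem-loop and a polyadenylated mRNA. All 11 listed were above 0, beside 54.6% of all passing genes, with a median of 0.36. With the brightest probe set, the series value table or a pseudocount 10 of 11 were. H2AFY2, which encodes macroH2A2, measured 2117 against 969 (1.13, 2.19-fold) and was the 1 of 11 at least 2-fold higher, beside 5.06% of all passing genes. H1F0, the H1 variant of resting cells, gave 6637 against 4138 (0.68), and CENPA, the centromeric H3, 2116 against 1439 (0.56). A difference between this list and the clustered genes was not tested, since there was 1 array per condition.

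Genes for synthesis and processing of histone mRNA were spread on both sides of 0, with 15 of 25 passing genes above 0 (54.6% of all passing genes were), 0 at least 2-fold higher, 1 at least 2-fold lower (3.56% of all were) and a median over all 27 of 0.05. With a pseudocount, 0 were at least 2-fold lower. SLBP, which binds the stem-loop, measured 3160 against 2734 (0.21), and NPAT, the cyclin E-Cdk2 substrate that activates histone genes, 127.6 against 126.9 (0.01); both were named after their values were seen. Above 0 stood NCBP2, of the nuclear cap-binding complex, at 444 against 230 (0.95), ZNF473, a U7 snRNP-associated zinc-finger protein, at 0.79, and CPSF2, of the cleavage complex, at 0.63. Below 0 stood ZCCHC6, the uridylyltransferase TUT7, at 102.5 against 221.3 (-1.11) with probe sets from -2.24 to 0.11, CASP8AP2, known as FLASH, at -0.50, and the scaffold gene SYMPK at -0.36.

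Histone chaperones carry histones to and from DNA. Of 19 that passed, 13 were above 0, beside 54.6% of all passing genes, and 0 reached 2-fold either way, beside 8.63%, with a median over all 20 of 0.14. CHAF1B, a subunit of the replication-coupled assembly factor CAF-1, gave 1867 against 1168 (0.68), the H1 and H3-H4 chaperone NASP 5362 against 3582 (0.58) and SSRP1, of the FACT complex, 0.49. DAXX, the H3.3 chaperone, differed by -0.42, the acetyltransferase gene HAT1 by -0.34 and MCM2 by -0.23.

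Genes of the cyclin E, E2F and S-phase entry list were above 0 in 12 of 13 that passed, beside 54.6% of all passing genes, with a median over all 15 of 0.34, and 2 were at least 2-fold higher, beside 5.06%. MCM6, of the replicative helicase, measured 3444 against 1592 (1.11), and the E2F transcription factor gene E2F2 2259 against 1110 (1.03). With centring or the lowess trend removed, 1 reached 2-fold, and with the brightest probe set 3 did. CCNE2, cyclin E2, gave 264 against 141 (0.90), and E2F1 1080 against 1113 (-0.04). The list also holds inhibitors of S-phase entry, among them CDKN1A, which encodes p21, at 7283 against 5762 (0.34).

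**Figure D5:**
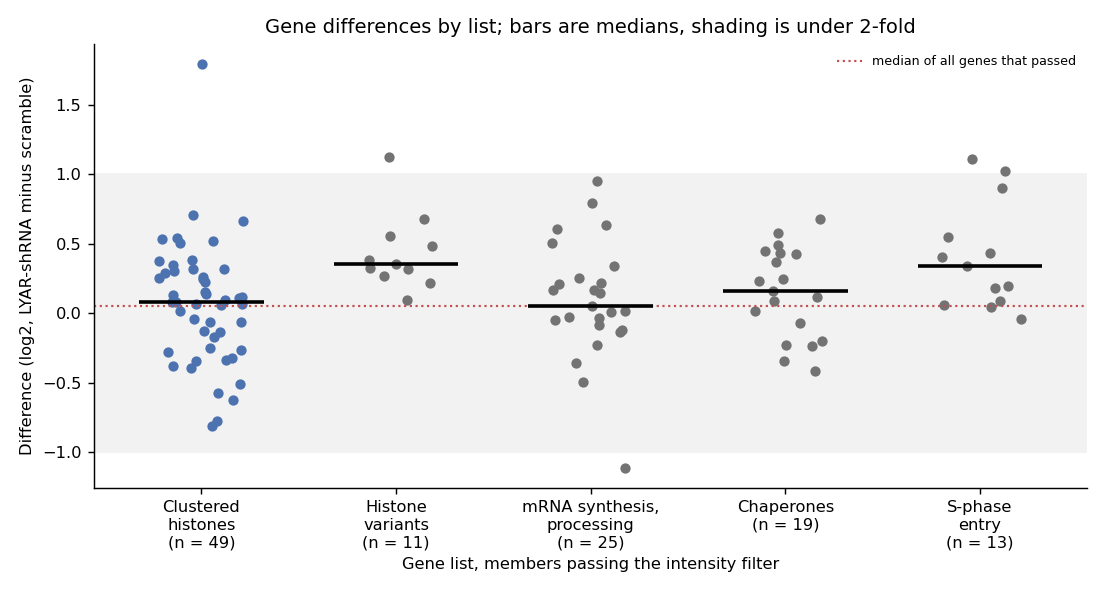
Log2 differences of the genes that passed the filter in the clustered histone set and in 4 companion lists, with a bar at each median, shading under 2-fold and a dotted line at the median of all passing genes, 0.05. Medians lie at 0.36 for the histone variants, 0.34 for the S-phase list, 0.16 for the chaperones, 0.08 for the clustered histones and 0.05 for the mRNA processing genes.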

How the data were processed

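Each sample was hybridised to 1 Cy3 array. The authors deposited linear intensities for each probe set, for which the submitters' processing notes name RMA. Neither its settings nor the arrays it was run over together are known here. The deposited column of standard errors, named so per the file headers and classed here as a score, has no stated scale and was not used. Intensities were taken to log2 from the deposited values, and a gene's value is the mean log2 over its probe sets. Random control probes (5000 on each array) set the near-random level at 2 times their value. Positions are hg18 as in the files, and promoters are RefSeq GRCh38.p14.

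A gene passed when its brighter array reached 105.9. With 1 array per condition no test was made, and the number of arrays limits the precision. Over the 7134 passing genes with several probe sets, probe sets of the same gene had a pooled SD of 0.46 on the log2 scale. It measures probe sets and not cultures. For each histone type the text names the 4 genes of highest mean intensity and, in each direction, the 3 genes of largest difference among those above 2 times random on both arrays. It also names the polyadenylated and testis lists, LYAR and, from each companion list, the 3 of largest difference each way. Other genes named, with the single probe sets, HIST1H4D, HIST1H4E, HIST1H4G, HIST1H4L, HIST1H3H, HIST1H2AM and HIST4H4 among them, were chosen after their values were seen. The members and lists were chosen with earlier results of these data known. More than 1 LYAR hairpin was designed, per the labels, and the one used for this array is not spelled out. Calculations used Python 3.11.15, pandas 2.3.3 and statsmodels 0.14.6 and were tested on simulated data.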

Additional observations from a re-analysis of the deposited data

How the results depend on the processing

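HIST1H4H was at least 2-fold higher under all 11 alternatives, with differences between 1.24 and 1.79. The count of histone genes at least 2-fold higher was 2 with no filter on dim genes, adding HIST1H4D, where 4.94% of all genes were, and 3 of 51 without probe sets of long span, adding HIST1H2BD and HIST1H4E, where 5.08% of all passing genes were. The count at least 2-fold lower was 2 of 54 with the brightest probe set (HIST1H4E and HIST1H4I, beside 5.37% of all passing genes), 1 with the series value table (HIST1H4I), 1 without long-span probe sets (HIST1H4I), and 1 with no filter or with a filter at 2 times random on the brighter array (HIST1H2BA). The shares of all genes lower in the last 4 settings ran from 2.48% to 4.94%. The brightest probe set and the long-span choice change which probe sets enter a gene, and the filters change which genes enter. Leaving out long-span probe sets, or those placed on another histone gene, was chosen after seeing the data. The median over all histone genes lay between 0.03 and 0.11. The H2B median was below 0 in 7 of 9 alternatives, with a range from -0.16 to 0.14, and the H3 median in 1 of 9. Of the differences of named genes under the alternatives, 328 moved by less than 0.46 and 22 by more. Among the latter HIST1H2BG (0.31), HIST1H2BN (0.26), HIST1H2BK (-0.13) and HIST1H3I (-0.12) took the other sign with the brightest probe set. The series value table holds 73 of the 117 member probe sets. No paired analysis was possible because there was 1 array per condition, and no array could be left out. Signal close to the random probes on 1 array (19) or both (16) limits the other member probe sets to a bound or to no fold.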
